A study of Mus musculus with 16 samples.

Results

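The genes described here make, break down, bind or respond to retinoic acid: Aldh1a2, Aldh1a1, Rdh10, Dhrs3, Cyp26a1, Cyp26b1, Rarb, Stra6 and Crabp2. They were chosen by name as a pathway, because Aldh1a2 was already known to be high in these data, and the question was whether the response genes followed its rise. All 9 genes were on the array, with 13 of its 60273 probes. Of these probes, 3 carried a gene symbol of the set in the scanner output (all Rarb), and the other 10 were found through the RefSeq accession of their transcript. The array held 45010 entries that are counted as genes here. Only 42265 probes had an unambiguous gene, which is fewer than 45010, so some entries are not named genes. Of the entries, 29306 passed the filter on dim signals and could be tested. Shares of all genes below refer to these tested entries, whether named or not. The tested entries included 7 of the 9 members. Aldh1a1 and Rarb did not pass and are described by their signals alone.

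The cells were CGR8-Myh6-GFP mESCs, a mouse embryonic stem cell line with a fluorescent reporter under the cardiac Myh6 promoter, which all samples share, and they differentiated in multiwell plates. Treatment began on day 4. At each of 6 h and 24 h, 2 samples received the vehicle DMSO, 3 received 0.25 mg/ml WS1442, a hawthorn extract, and 3 received 0.1 mg/ml of its MeOH eluate, a fraction of the same extract, which gives 16 samples in 6 groups. The samples are mixed populations of 1 cell line, so fewer cells of a kind and less RNA per cell cannot be told apart, and nothing in the labels says whether replicates were separate differentiations, so p-values measure the spread between these samples only. Every sample had an array of its own with 1 dye, and between 55.1% and 63.0% of the 61473 gene spots were well above background, with RNA integrity numbers from 8.6 to 10. All arrays of a time point lay on 1 slide, so a difference in level between 6 h and 24 h cannot be told apart from the slide, and only effects relative to DMSO of the same time point are compared between times. Signals are log2 intensities in arbitrary units, and every fold change is taken within a probe.

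Retinoic acid is made from vitamin A in a pair of oxidation steps. Retinol is first oxidised to retinaldehyde, in embryos mainly by RDH10, and retinaldehyde is then oxidised irreversibly to retinoic acid by the ALDH1A enzymes, of which ALDH1A2 is the main source in early mesoderm. DHRS3 reduces retinaldehyde back to retinol, STRA6 carries retinol into cells, CRABP2 delivers retinoic acid to nuclear receptors, and the CYP26 enzymes degrade it. The receptors (RARA, RARB and RARG, paired with RXRs) bind direct repeats of a hexamer, and Cyp26a1, Rarb and Dhrs3 are textbook genes that rise when retinoic acid is added to cells. In the embryo, retinoic acid patterns the trunk and limits the size of the heart field.

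Promoter windows of 300 bases, from 250 before to 50 after the transcription start, were at hand for 7 of the members (RefSeq, GRCm38.p6, 13 windows). They were searched on both strands for direct repeats of the hexamer AGGTCA or its relatives AGTTCA, likewise GGGTCA, likewise GGTTCA, in any combination, with a spacer of 1, 2 or 5 bases. A repeat was found in 2 windows, those of Cyp26a1 and Rarb, and both had the 5-base spacer. Such a repeat with 5 bases lay in 32 of all 32851 windows, or 0.0974%, and a repeat with any of the 3 spacers in 193, or 0.588%. These stretches are shown because Cyp26a1 and Rarb are the classical direct targets of the receptors and their signals are followed below. Capitals mark the hexamers. The Cyp26a1 repeat lies on the opposite strand, so its hexamers read TGAACT here.
Cyp26a1: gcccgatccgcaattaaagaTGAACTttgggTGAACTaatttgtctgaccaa
Rarb: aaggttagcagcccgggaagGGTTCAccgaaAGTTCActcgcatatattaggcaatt
The Cyp26a1 stretch is chr19:37697756-37697807 on the plus strand and the Rarb stretch chr14:16575493-16575549 on the minus strand, each read in the direction of its gene. The Cyp26a1 repeat spans positions -32 to -16 from the transcription start, and the Rarb repeat positions -53 to -37. A match of letters describes the sequence and was not tested for binding, and no match in the windows of Aldh1a2, Aldh1a1, Dhrs3, Cyp26b1 and Stra6 says only that these letters were not found there.

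Aldh1a2 rose strongly at 24 h with both treatments, and the textbook response genes named above were divided. Dhrs3 rose at 24 h with MeOH eluate and missed the threshold with WS1442, Cyp26a1 rose with neither treatment, and Rarb could not be tested. Of the 7 members tested, 3 rose and 1 fell with WS1442 at 24 h at an adjusted p-value under 0.05 (limma, Benjamini-Hochberg over all genes tested), beside 12.9% of all genes called higher and 11.9% called lower. Aldh1a2, Rdh10 and Crabp2 rose and Cyp26b1 fell. With MeOH eluate at 24 h, Aldh1a2, Rdh10 and Dhrs3 rose and Cyp26a1 and Cyp26b1 fell, beside 9.62% of all genes called higher and 8.62% lower. At 6 h, WS1442 gave 1 member higher (Crabp2) and 1 lower (Cyp26a1), where 4.13% and 1.42% of all genes were called. MeOH eluate at 6 h gave Crabp2 higher and Cyp26a1, Dhrs3 and Rdh10 lower, where 8.63% and 8.42% of all genes were called. With so few members, 1 gene in a direction is a share of the members larger than any of these backgrounds, so the counts say little and the values of each gene carry the description.

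Changes beyond 2-fold (log2 fold change over 1 or under -1, with an unadjusted p-value under 0.05) were rarer in the whole table. Aldh1a2 alone among the members passed this limit with WS1442 at 24 h, where 2.08% of all genes did. Aldh1a2, Rdh10 and Cyp26a1 passed it with MeOH eluate at 24 h, where 2.99% of all genes did. At 6 h, Cyp26a1 passed with MeOH eluate, where 2.11% of all genes did, and no member passed with WS1442, where 0.434% did. The median log2 fold change over all genes lay between -0.01 and 0.05 in these comparisons. Scaling each array to its 75th percentile instead of quantile normalization moved the share of higher calls among all called genes from 52.0% to 41.4% with WS1442 at 24 h and from 52.7% to 42.5% with MeOH eluate at 24 h. Every called member kept its direction under each scaling, but not every call was kept. With 75th percentile scaling, Cyp26a1 with WS1442 at 6 h (adjusted p = 0.0771, limma) and Crabp2 with WS1442 at 24 h (0.0859) were not called. Nor was Crabp2 between MeOH eluate and WS1442 at 6 h (0.104), whereas Dhrs3 with WS1442 at 24 h was called (0.0453).

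**Figure D1:**
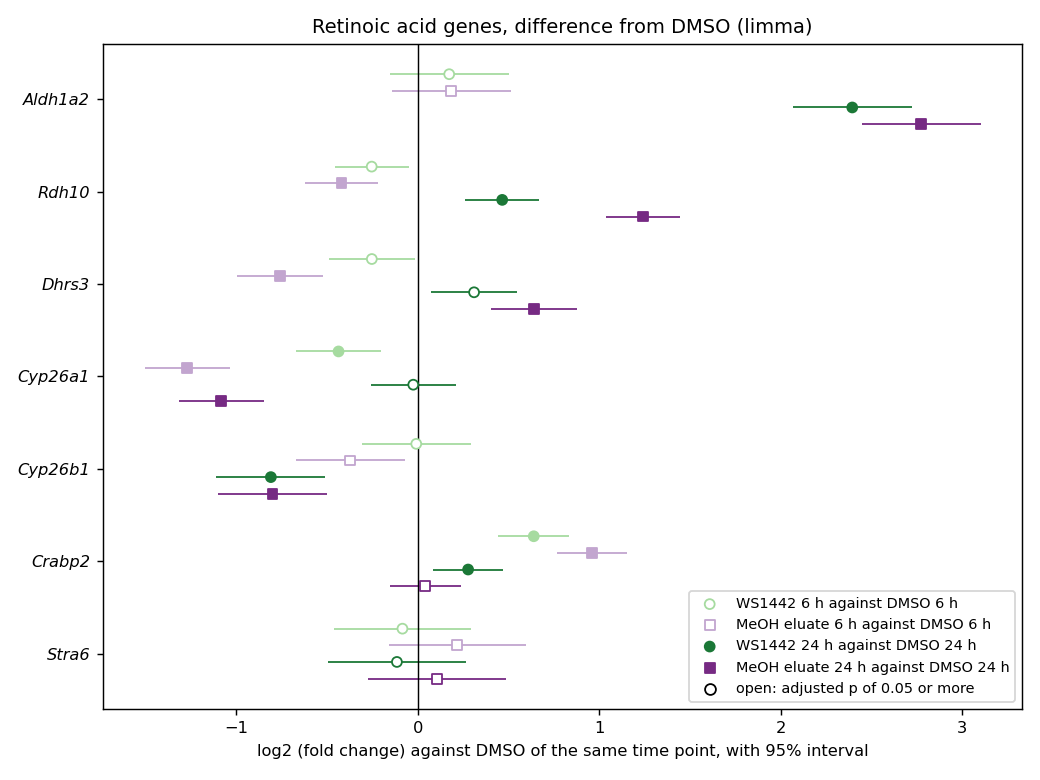
The 7 tested retinoic acid genes are in rows, with log2 (fold change) against DMSO of the same time point on the x axis, circles for WS1442 and squares for MeOH eluate, pale for 6 h and dark for 24 h, and lines for the 95% interval of limma. Filled symbols have an adjusted p-value under 0.05. Aldh1a2 stands at 2.39 and 2.77 at 24 h, whereas Cyp26a1 lies at or left of 0 in all 4 comparisons.

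Aldh1a2, the enzyme that makes retinoic acid in early mesoderm, was measured by 1 probe (NM_009022.4) that was well above background on all 16 arrays. At 6 h its log2 signal was 5.49 and 5.33 with DMSO, 5.32, 5.51 and 5.92 with WS1442, and 5.47, 5.78 and 5.54 with MeOH eluate. The 3 groups overlapped. At 24 h it was 6.46 and 6.56 with DMSO, 8.91, 8.79 and 9.02 with WS1442, and 9.44, 9.18 and 9.24 with MeOH eluate. Every treated culture stood far above both DMSO cultures, and every culture with MeOH eluate above every culture with WS1442. The log2 fold change at 24 h was 2.39 ± 0.15 (SE) with WS1442, or 5.26-fold (adjusted p = 6.56e-07, limma), and 2.77 ± 0.15 with MeOH eluate, or 6.84-fold (adjusted p = 4.57e-08, limma). At 6 h the differences were 0.17 ± 0.15 (adjusted p = 0.598, limma; 95% interval -0.15 to 0.50) and 0.19 ± 0.15 (adjusted p = 0.46, limma; -0.14 to 0.51), so that a rise of the size seen at 24 h lay outside both intervals at 6 h. Both 24 h calls passed in all 30 other settings that were run, with values from 1.84 to 2.48 for WS1442 and from 2.18 to 2.87 for MeOH eluate.

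Rdh10, which supplies retinaldehyde to ALDH1A2, changed in opposite directions at the 2 time points with MeOH eluate. Its log2 signal at 6 h was 8.70 and 8.58 with DMSO, 8.24, 8.50 and 8.44 with WS1442, and 8.20, 8.25 and 8.22 with MeOH eluate. All treated cultures were below both DMSO cultures. At 24 h it was 8.07 and 7.78 with DMSO, 8.50, 8.32 and 8.35 with WS1442, and 9.22, 9.13 and 9.16 with MeOH eluate, and now all treated cultures were above. At 6 h the log2 fold change was -0.42 ± 0.10 with MeOH eluate (adjusted p = 0.00764, limma), a call that was lost without DMSO 6 h replicate 1 (adjusted p = 0.103), and -0.25 ± 0.10 with WS1442 (adjusted p = 0.142). At 24 h Rdh10 rose by 0.47 ± 0.10 with WS1442 (adjusted p = 0.00254, limma) and by 1.24 ± 0.10, or 2.36-fold, with MeOH eluate (adjusted p = 6.34e-07, limma).

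Dhrs3, the reductase that returns retinaldehyde to retinol and also a textbook response gene, showed the same order. The probe that represents it (NM_001172424.1) read 7.69 and 7.89 with DMSO at 6 h, 7.49, 7.60 and 7.53 with WS1442, and 7.03, 7.04 and 7.03 with MeOH eluate. The cultures with MeOH eluate were low and tightly grouped. At 24 h it read 7.48 and 7.12 with DMSO, 7.69, 7.70 and 7.45 with WS1442, and 7.97, 7.86 and 8.01 with MeOH eluate, where WS1442 replicate 3 lay within the DMSO range and all cultures with MeOH eluate above it. Dhrs3 fell at 6 h with MeOH eluate by 0.76 on the log2 scale (SE 0.11, adjusted p = 0.000363, limma) and rose by 0.64 ± 0.11 at 24 h (adjusted p = 0.000802, limma). With WS1442 the differences were -0.25 ± 0.11 at 6 h (adjusted p = 0.218) and 0.31 ± 0.11 at 24 h (adjusted p = 0.0542), and the latter passed without DMSO 24 h replicate 1 (log2 fold change 0.49, adjusted p = 0.0165) or without WS1442 24 h replicate 3 (0.39, adjusted p = 0.0305), whereas without DMSO 24 h replicate 2 it was 0.13 (adjusted p = 0.474).

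Another probe for Dhrs3 (NM_011303.6) read between 2.78 and 4.77. At 24 h it was well above background on neither DMSO array and on every treated array, and there it exceeded DMSO at least 1.63-fold for WS1442 (adjusted p = 0.07) and at least 1.95-fold for MeOH eluate (adjusted p = 0.0255, limma over all kept probes). At 6 h its mean was 4.27 with DMSO and 3.26 with MeOH eluate (adjusted p = 0.0385), with 1 of the 3 treated arrays well above background. Both probes thus gave the same directions. Such a bound sets the mean of the treated group against the higher of the probe's own signal and the lowest signal of any probe above background on each DMSO array.

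**Figure D2:**
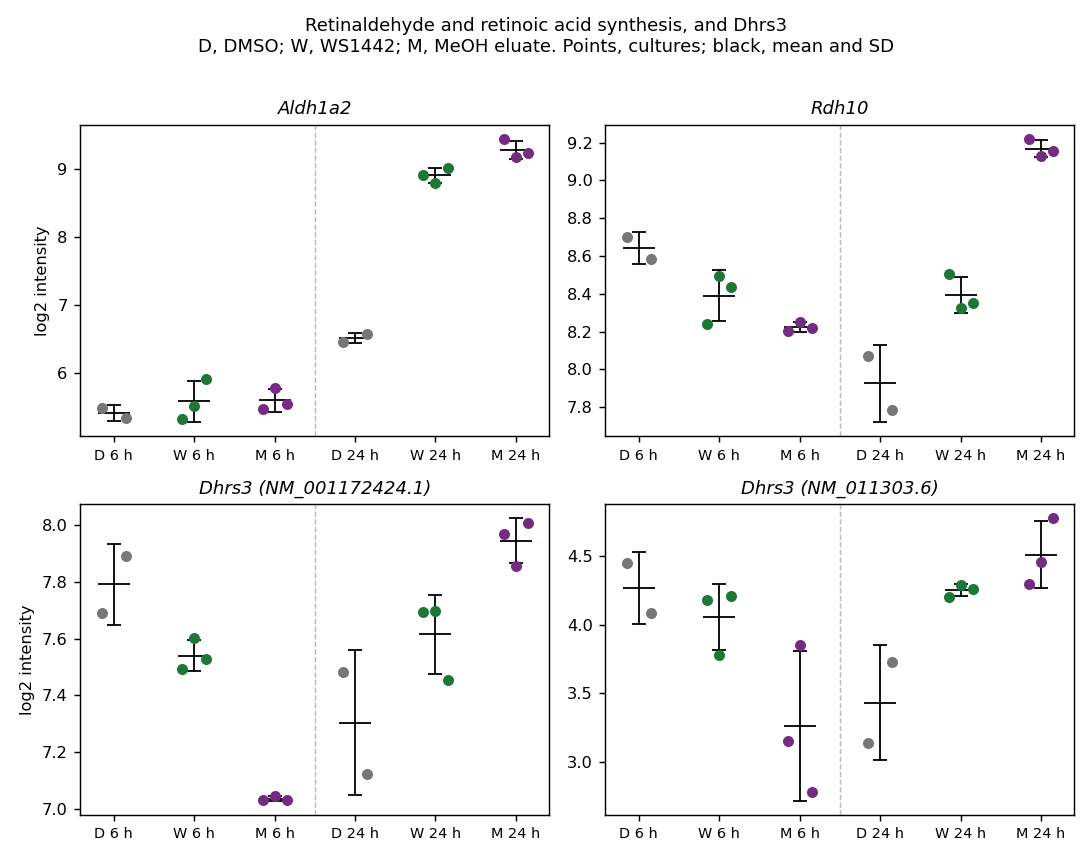
Each panel plots the log2 intensity of a probe (y axis) in the 6 groups (x axis) with a point for each culture and the group mean and SD in black, and the dashed line separates the slides of 6 h and 24 h. The y axes start near the lowest signal of each probe. Aldh1a2 is flat at 6 h and high in all 6 treated cultures at 24 h, and Rdh10 and both Dhrs3 probes are below DMSO with MeOH eluate at 6 h and above it at 24 h on average.

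Aldh1a1, a related enzyme that is abundant in eye and liver, was near the limit of detection. Its probe (NM_013467.3) was well above background on 5 of 16 arrays, which were 2 with WS1442 at 6 h, 1 with DMSO at 24 h and 2 with WS1442 at 24 h. Signals ranged from 2.80 to 4.02 over all arrays and the groups overlapped. Without the filter on dim probes, the log2 difference from DMSO was between 0.02 and 0.22 in the 4 comparisons (SE 0.38), and no call was made.

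Cyp26a1, the retinoic acid hydroxylase whose promoter repeat is printed above, did not rise in any comparison. Its probe (NM_007811.2) read 9.69 and 9.94 with DMSO at 6 h, 9.38, 9.29 and 9.47 with WS1442, and 8.49, 8.63 and 8.51 with MeOH eluate. The 3 groups did not overlap. The 24 h signals were 10.23 in both cultures with DMSO, 10.13, 10.13 and 10.36 with WS1442, and 9.31, 9.21 and 8.92 with MeOH eluate, so that only MeOH eluate set its cultures apart. With MeOH eluate Cyp26a1 fell by 1.27 on the log2 scale at 6 h (SE 0.11, a 2.41-fold decrease, adjusted p = 3.15e-06, limma) and by 1.08 at 24 h (SE 0.11, 2.12-fold, adjusted p = 8.42e-06, limma). With WS1442 it fell by 0.44 at 6 h (SE 0.11, adjusted p = 0.0324, limma), a call that was lost without DMSO 6 h replicate 1 (adjusted p = 0.0783), DMSO 6 h replicate 2 (0.227), WS1442 6 h replicate 2 (0.087) or WS1442 6 h replicate 3 (0.0554). At 24 h the difference with WS1442 was -0.02 ± 0.11 (adjusted p = 0.905, limma), with a 95% interval of -0.26 to 0.21, in the cultures in which Aldh1a2 rose 5.26-fold.

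Cyp26b1, a second enzyme of the same family, was lower at 24 h by about the same amount with both treatments. At 6 h its probe (NM_001177713.1) read 5.86 and 6.00 with DMSO, 6.06, 5.79 and 5.93 with WS1442, and 5.51, 5.80 and 5.37 with MeOH eluate. The 24 h signals were 6.76 and 6.68 with DMSO, 5.96, 5.90 and 5.87 with WS1442, and 5.94, 6.03 and 5.79 with MeOH eluate. The treated cultures at 24 h lay in 1 narrow range well below DMSO. Cyp26b1 fell by 0.81 on the log2 scale with WS1442 (SE 0.14, adjusted p = 0.000837, limma) and by 0.80 with MeOH eluate (SE 0.14, adjusted p = 0.00089, limma) at 24 h. With normexp background correction these differences were -0.46 and -0.45 (adjusted p = 0.000227 and 0.000209). At 6 h the differences were -0.01 ± 0.14 (adjusted p = 0.988) and -0.37 ± 0.14 (adjusted p = 0.0858), and the latter passed without MeOH eluate 6 h replicate 2 (-0.49, adjusted p = 0.0279).

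Crabp2, the carrier of retinoic acid to its receptors, rose at 6 h with both treatments. Its probe (NM_007759.2) read 8.72 and 8.82 with DMSO at 6 h, 9.26, 9.34 and 9.63 with WS1442, and 9.70, 9.76 and 9.74 with MeOH eluate. Both treated groups were above DMSO, and MeOH eluate above WS1442. At 24 h the range was narrower, with 9.92 and 9.93 for DMSO, 10.19, 10.16 and 10.27 for WS1442, and 10.08, 9.97 and 9.86 for MeOH eluate. Crabp2 rose at 6 h by 0.64 ± 0.09 with WS1442 (adjusted p = 0.00172, limma) and by 0.96 ± 0.09, or 1.95-fold, with MeOH eluate (adjusted p = 7.39e-06, limma). A rise of 0.28 ± 0.09 with WS1442 at 24 h (adjusted p = 0.0372, limma) was a call that was lost when any 1 of the 5 cultures of that comparison was left out (adjusted p from 0.0525 to 0.167), and the difference with MeOH eluate was 0.04 ± 0.09 (adjusted p = 0.832). The WS1442 call was also lost with 75th percentile scaling (0.0859), no filter on dim probes (0.0618), eBayes without trend (0.0623) and array row as a block (0.0591). The rise of Crabp2 at 6 h thus stood in cultures whose Aldh1a2 signal overlapped DMSO.

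Stra6, the membrane receptor through which cells take up retinol, passed in none of the 4 comparisons. Its probe (NM_001162475.1) lay between 7.80 and 8.30 in all cultures at 6 h and between 6.81 and 7.57 at 24 h. The log2 differences from DMSO were -0.08 (WS1442) and 0.22 (MeOH eluate) at 6 h and -0.11 and 0.11 at 24 h (SE 0.18 each). WS1442 24 h replicate 2 read 7.57 while the other 2 cultures of its group read 6.84 and 6.81, and without it the difference at 24 h with WS1442 was -0.36 (adjusted p = 0.038, limma).

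**Figure D3:**
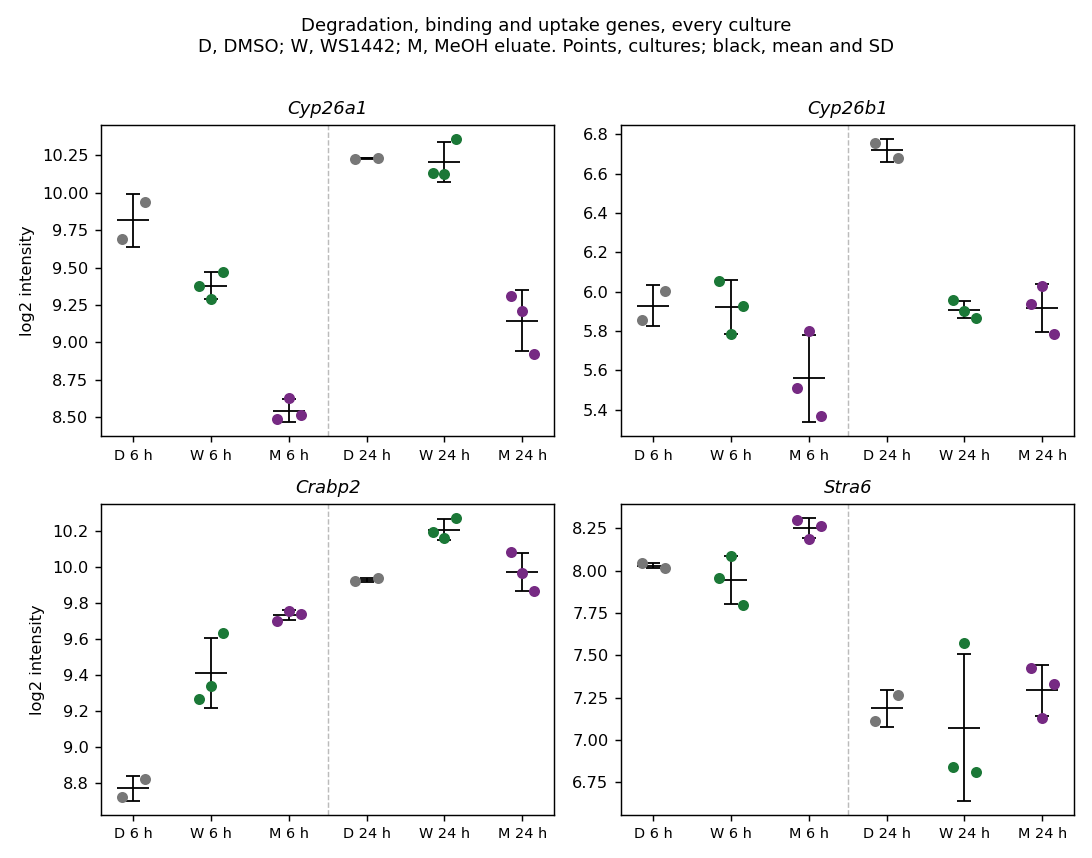
Each panel plots the log2 intensity of a probe (y axis) in the 6 groups (x axis) with a point for each culture and the group mean and SD in black, and the dashed line separates the slides of 6 h and 24 h. The y axes start near the lowest signal of each probe. Cyp26a1 is low with MeOH eluate at both times, Cyp26b1 is low with both treatments at 24 h, Crabp2 is high with both at 6 h, and Stra6 overlaps DMSO except with MeOH eluate at 6 h.

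Rarb, the receptor gene with the other promoter repeat, stayed below detection. It had 4 probes, for the transcripts NM_011243.1, NM_001289760, NM_001289761 and AK054178. None of NM_011243.1, NM_001289761 and AK054178 was well above background on any array. NM_001289760 was above it on 1 array, DMSO 24 h replicate 2, with a log2 signal of 4.55, whereas its other arrays read between 1.28 and 2.30. NM_011243.1 ranged from 1.37 to 2.99, with 1.44 and 2.17 for DMSO at 24 h, 2.34, 2.40 and 2.57 for WS1442, and 1.55, 2.79 and 1.75 for MeOH eluate. These signals carry no fold change, since both sides were below background. Without the filter on dim probes this probe gave log2 differences of 0.63 ± 0.44 with WS1442 (adjusted p = 0.439, limma) and 0.22 ± 0.44 with MeOH eluate (adjusted p = 0.896) at 24 h. A rise of Rarb that stays under the background of these arrays would not have been detectable.

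The extract and its fraction were also compared with each other at each time point. The doses differed (0.25 and 0.1 mg/ml), so these differences are between the treatments as given. At 6 h, 3 of the 7 members differed at an adjusted p-value under 0.05 (limma), beside 12.1% of all genes. With MeOH eluate, Cyp26a1 was lower than with WS1442 by a log2 difference of -0.83 ± 0.10 (adjusted p = 0.000166), Dhrs3 was lower by -0.50 ± 0.10 (adjusted p = 0.00637) and Crabp2 was higher by 0.32 ± 0.08 (adjusted p = 0.0221), the last a call that was lost without any 1 of WS1442 6 h replicates 1 and 2 and MeOH eluate 6 h replicates 1, 2 and 3 (adjusted p from 0.0509 to 0.0766). At 24 h, 3 members differed again, beside 14.7% of all genes. Rdh10 was higher with MeOH eluate by 0.77 ± 0.09 (adjusted p = 0.000103), Cyp26a1 was lower by -1.06 ± 0.10 (adjusted p = 3.42e-05) and Dhrs3 was higher by 0.33 ± 0.10 (adjusted p = 0.0377), and the Dhrs3 call was lost without WS1442 24 h replicates 2 or 3 or any 1 of the 3 cultures with MeOH eluate (adjusted p from 0.0503 to 0.185). Aldh1a2 differed by 0.38 ± 0.14 between the treatments at 24 h (95% interval 0.09 to 0.67, adjusted p = 0.0798, limma), a difference that missed the threshold and that passed without WS1442 6 h replicate 1 (adjusted p = 0.0484) or replicate 3 (0.029), cultures which enter it only through the shared estimate of the spread. It also passed with normexp background correction (0.0154), a fit of the 24 h samples alone (0.0187) and array weights (0.0331), and its adjusted p-values over all settings ran from 0.0154 to 0.235.

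The difference between the effects at 24 h and at 6 h was tested within the same fit. With WS1442 this difference passed for 4 of 7 members, beside 12.7% of all genes, and with MeOH eluate for 4 of 7, beside 7.72% (limma, adjusted p-values under 0.05). Aldh1a2 gained 2.22 ± 0.22 (adjusted p = 0.000112) with WS1442 and 2.59 ± 0.22 (adjusted p = 4.2e-06) with MeOH eluate. Rdh10 gained 0.72 ± 0.13 (adjusted p = 0.00474) and 1.66 ± 0.13 (adjusted p = 3.58e-06). Dhrs3 gained 0.56 ± 0.16 (adjusted p = 0.0307) and 1.40 ± 0.16 (adjusted p = 6.25e-05), of which the value with WS1442 was no longer called without DMSO 6 h replicate 2 (adjusted p = 0.122), WS1442 6 h replicate 3 (0.0538), DMSO 24 h replicate 2 (0.11), WS1442 24 h replicate 1 (0.0541) or WS1442 24 h replicate 2 (0.0666).

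Among the members that act after synthesis, the effects changed the other way or showed no detectable change between times. Crabp2 lost 0.92 on the log2 scale with MeOH eluate, as a difference of -0.92 ± 0.13 (adjusted p = 0.000408, limma), and the difference with WS1442 was -0.36 ± 0.13 (adjusted p = 0.0796). For Cyp26b1 it was -0.80 ± 0.20 with WS1442 (adjusted p = 0.0176), not called without DMSO 6 h replicate 1 (0.0844) or DMSO 24 h replicate 1 (0.0708) and -0.45 with normexp background correction (0.00802), and -0.43 ± 0.20 with MeOH eluate (adjusted p = 0.225). For Cyp26a1 the differences were 0.41 ± 0.16 (adjusted p = 0.0977) and 0.19 ± 0.16 (adjusted p = 0.531), so neither treatment gave a called gain in Cyp26a1 at the time when Aldh1a2 was high.

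The agreement of each member's profile with that of Aldh1a2 was described by a Pearson correlation over the 16 samples, after the DMSO mean of the time point had been subtracted. The samples of a time point share those DMSO cultures and fall into groups, so no p-value is given. It was 0.89 for Rdh10 and 0.78 for Dhrs3, -0.89 for Cyp26b1, -0.35 for Crabp2, -0.12 for Cyp26a1 and -0.09 for Stra6. By the same measure, the closest profiles were sought among 953 named genes with a log2 fold change over 1 or under -1 in at least 1 comparison with DMSO, so that all candidates had changed by the way they were chosen. The profiles closest to Aldh1a2 were those of Akr1c18 (0.98, a hydroxysteroid dehydrogenase), Cdc20b (0.97), Serpinb9b (0.97, a serine protease inhibitor), Itpkc (0.97, an inositol phosphate kinase) and Slc4a11 (0.97, a membrane transporter). At 24 h the log2 fold changes of Cdc20b were 0.87 with WS1442 and 1.05 with MeOH eluate, those of Slc4a11 1.03 and 1.43, and Akr1c18, which was not well above background with DMSO, was at least 2.01-fold and at least 2.42-fold higher.

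The other genes of the pathway were taken from 3 lists written from general knowledge. Their counts stand beside the shares of all genes called, given above for each comparison and direction. Uptake, storage and synthesis genes beside the members numbered 15, of which 7 were tested, and few of them moved. Rdh11, a retinol dehydrogenase, and Dgat1, an acyltransferase, rose by 0.30 and 0.25 with WS1442 at 6 h, and none passed with MeOH eluate at 6 h (limma; 1 at an unadjusted p-value under 0.05). The calls of Rdh11 and Dgat1 were both lost without DMSO 6 h replicate 1, without WS1442 6 h replicate 3, with eBayes without trend and in a fit of the 6 h samples alone (adjusted p from 0.0692 to 0.463). At 24 h Rdh11 rose by 0.26 with WS1442 and fell by 0.37 with MeOH eluate, Dhrs4 rose by 0.26 and Rbp4, the plasma retinol carrier, fell by 0.52 with MeOH eluate. The rise of Rdh11 with WS1442 was not called without DMSO 24 h replicate 1 or 2 or WS1442 24 h replicate 2 or 3 (adjusted p from 0.054 to 0.116), and neither Dhrs4 nor Rbp4 was called without DMSO 24 h replicate 1 or 2 or MeOH eluate 24 h replicate 3 (adjusted p from 0.0538 to 0.194), nor was Rbp4 without MeOH eluate 24 h replicate 1 (0.0502). Aldh1a3, the other retinaldehyde dehydrogenase in the list, had log2 differences of -0.03, 0.39, 0.22 and -0.02 for WS1442 then MeOH eluate, first at 6 h and then at 24 h, respectively (SE 0.29, lowest adjusted p = 0.412, limma). Of the ALDH1A genes on the array, Aldh1a2 passed the test, Aldh1a3 did not, and Aldh1a1 could not be tested.

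Of the binding proteins, receptors, cofactors and degradation genes, 10 of 11 were tested. At 6 h Rarg, a retinoic acid receptor, rose with both treatments, from between 8.73 and 8.78 with DMSO to between 9.17 and 9.22 with WS1442 (log2 fold change 0.43 ± 0.08, adjusted p = 0.00805, limma) and between 9.33 and 9.51 with MeOH eluate (0.69 ± 0.08, adjusted p = 5.15e-05). Crabp1, a carrier related to Crabp2, rose by 0.78 ± 0.20 with MeOH eluate (adjusted p = 0.0137). Without DMSO 6 h replicate 1, Rarg with WS1442 (0.41, adjusted p = 0.111) and Crabp1 (0.57, adjusted p = 0.202) were no longer called. At 24 h no gene of the list was called higher with either treatment (limma; at an unadjusted p-value under 0.05, 0 with WS1442 and 1 with MeOH eluate). With each treatment 3 genes of the list were lower, among them Rara and Rxra, which fell by 0.28 and 0.30 under WS1442, and Rxrb and the fatty acid and retinoid carrier Fabp5, which fell by 0.14 and 0.25 under MeOH eluate. Beside them, 11.9% of all genes were called lower with WS1442 and 8.62% with MeOH eluate at 24 h. Without DMSO 24 h replicate 1, the 3 became 1 with WS1442 and 0 with MeOH eluate, and none of these 4 named genes was called (limma, adjusted p from 0.058 to 0.297). The call of Rxrb was lost in 21 of 29 other settings. The median log2 fold changes of the list were 0.08, 0.01, -0.11 and -0.07 in the order used above.

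Of 25 further response genes, 20 were tested, and the answer to whether they followed Aldh1a2 was mixed. At 24 h, when Aldh1a2 was high, 8 rose and 1 fell with WS1442 and 4 rose and 1 fell with MeOH eluate, with median log2 fold changes of 0.26 and 0.10. At 6 h, when Aldh1a2 overlapped DMSO, 4 rose and none fell with WS1442 (1 lower at an unadjusted p-value under 0.05, limma) and 4 rose and 3 fell with MeOH eluate, with medians of -0.02 and 0.12. The backgrounds of all genes called are those given above for each comparison and direction. The 8 genes higher with WS1442 at 24 h became 3 without DMSO 24 h replicate 1 and 5 without DMSO 24 h replicate 2, and the 4 higher with WS1442 at 6 h became 1 without DMSO 6 h replicate 1, 2 without WS1442 6 h replicate 3 and 1 in a fit of the 6 h samples alone. The 3 lower with MeOH eluate at 6 h became 0 without DMSO 6 h replicate 1, and 1 without MeOH eluate 6 h replicate 2, in a fit of the 6 h samples alone or with the mean of a gene's probes. The 1 lower with MeOH eluate at 24 h became 0 without DMSO 24 h replicate 1 and 2 without DMSO 24 h replicate 2. Most of these genes, among them the early Hox genes, have inputs other than retinoic acid.

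Tgm2, a transglutaminase long known as induced by retinoic acid, had the profile most like that of Aldh1a2 among the 20 tested response genes (correlation 0.95 by the measure above, against 0.83 for Bhlhe40, the next). At 6 h its signals were between 9.91 and 10.01 with DMSO, 9.68 and 9.97 with WS1442 and 9.68 and 9.75 with MeOH eluate, where it fell by 0.24 on the log2 scale (adjusted p = 0.046, limma), a call lost in 17 of 29 other settings. At 24 h they were between 9.82 and 9.84, 10.35 and 10.47, and 10.49 and 10.64. It rose at 24 h by 0.59 ± 0.08 with WS1442 (adjusted p = 1e-04, limma) and by 0.76 ± 0.08 with MeOH eluate (adjusted p = 7.61e-06), and the difference between times was 0.72 (adjusted p = 0.00147) and 0.99 (adjusted p = 4.49e-05), the latter including that lower signal at 6 h. Bhlhe40, a transcriptional repressor that also answers to hypoxia, rose by 0.88 ± 0.05 with WS1442 (adjusted p = 6.37e-07) and by 1.06 ± 0.05 with MeOH eluate (adjusted p = 2.49e-08) at 24 h, and already at 6 h by 0.21 (adjusted p = 0.0345) and 0.72 (adjusted p = 8.78e-07). The smaller of these, with WS1442, was not called without DMSO 6 h replicate 1 (0.14, adjusted p = 0.457) or WS1442 6 h replicate 2 (0.0676) or 3 (0.124).

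Meis2, a homeobox cofactor of Hox proteins, was high before Aldh1a2 was. With DMSO it lay between 5.35 and 5.51 at 6 h, and with WS1442 between 6.52 and 6.66 and with MeOH eluate between 6.42 and 6.53, so that it rose by 1.15 ± 0.09 (adjusted p = 1.29e-05, limma) and 1.04 ± 0.09 (adjusted p = 3.22e-06). At 24 h it rose by 0.53 and 1.01, and with WS1442 the effect was smaller at 24 h than at 6 h (difference -0.62 ± 0.13, adjusted p = 0.00711). Hoxb2 rose in all 4 comparisons, by 0.56, 0.41, 0.36 and 0.79 for WS1442 then MeOH eluate, first at 6 h and then at 24 h. Its calls at 6 h were lost without DMSO 6 h replicate 1 (adjusted p = 0.178 and 0.205), that with MeOH eluate also without MeOH eluate 6 h replicate 3 (0.0641), and that with WS1442 at 24 h without DMSO 24 h replicate 1 (0.147) or 2 (0.087) or WS1442 24 h replicate 1 (0.0744) or 3 (0.101). Rarres2, which encodes chemerin, rose by 1.22 with MeOH eluate at 6 h (adjusted p = 0.0028), and its differences at 24 h were -0.05 and -0.04.

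**Figure D4:**
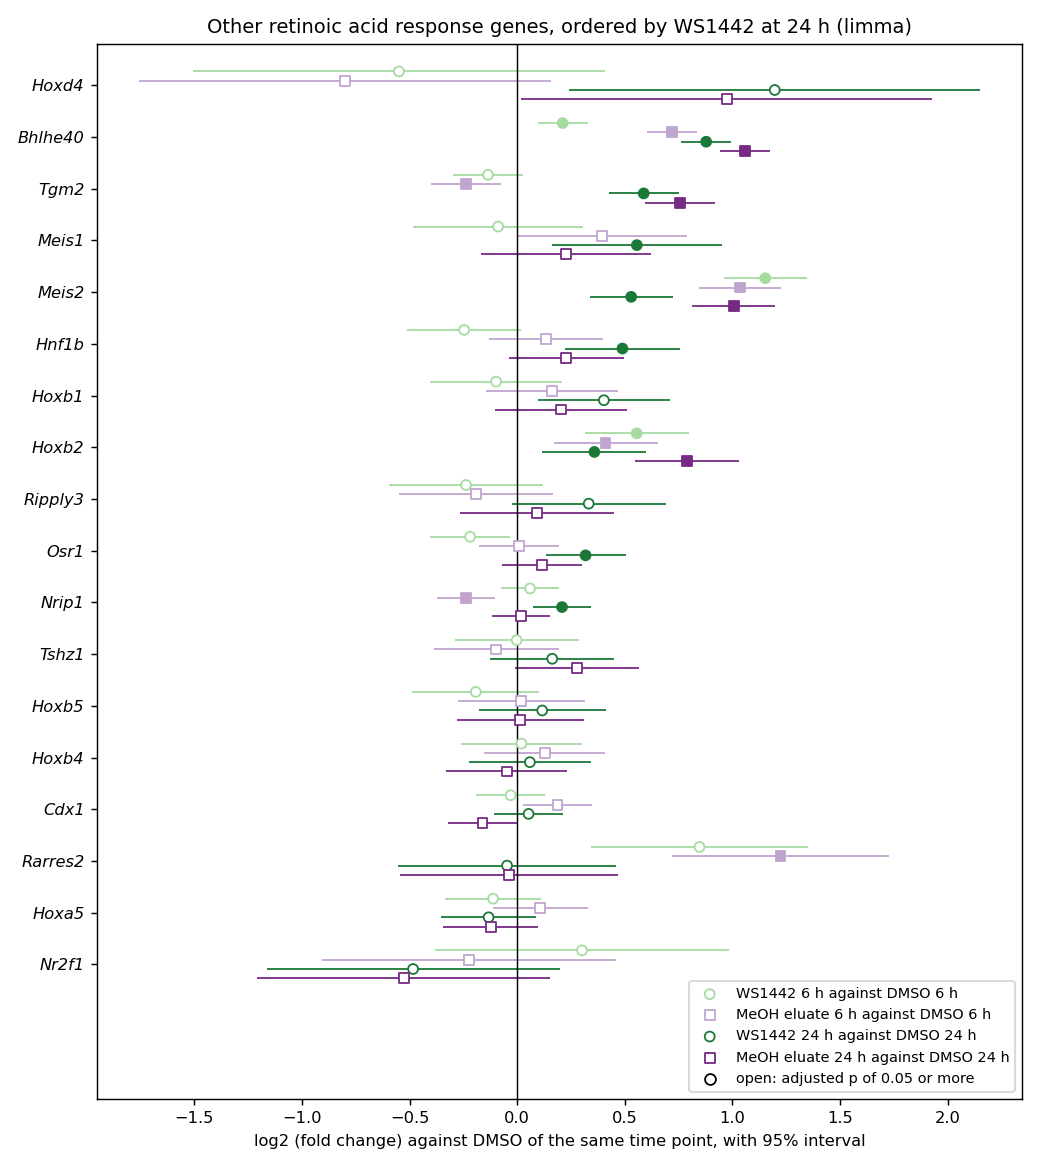
Of the response list, 18 tested genes are in rows, ordered by WS1442 at 24 h, with log2 (fold change) against DMSO of the same time point on the x axis, circles for WS1442 and squares for MeOH eluate, pale for 6 h and dark for 24 h, and lines for the 95% interval of limma. Filled symbols have an adjusted p-value under 0.05. Tgm2 moved to the right from 6 h to 24 h, Meis2 and Hoxb2 were to the right of 0 at both times, and Hoxd4, with the widest intervals, was not well above background with DMSO at 24 h.

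Markers of the cell kinds in these mixed cultures moved in the same samples, and their part in the results above was not tested. The cultures held the signals of differentiating mESCs: all 9 pluripotency and all 11 cardiac mesoderm markers were tested, with 11 of 13 paraxial mesoderm, 7 of 8 neuroectoderm, 6 of 10 endoderm and 5 of 8 epicardial markers. Among the paraxial markers, in whose tissue Aldh1a2 is normally expressed, 2 rose with WS1442 and 4 rose and 1 fell with MeOH eluate at 6 h, and 3 rose with WS1442 and 2 rose and 1 fell with MeOH eluate at 24 h. Beside these counts and those of the marker lists below, 4.13% of all genes were called higher and 1.42% lower with WS1442 at 6 h. The shares were 8.63% and 8.42% with MeOH eluate at 6 h. At 24 h they were 12.9% and 11.9% with WS1442 and 9.62% and 8.62% with MeOH eluate. With 5 to 11 tested genes in a list, such counts say little. Foxc2 rose by 1.85 and 3.24 at 6 h and by 0.78 and 1.44 at 24 h, and Msgn1, a marker of unsegmented mesoderm, fell by 0.77 with MeOH eluate at 24 h, while Pax1 and Pax3 were not tested because they stayed dim. The summed intensity of the 11 tested paraxial markers at 24 h was 5067 to 5349 with DMSO, 6572 to 7121 with WS1442 and 5853 to 7026 with MeOH eluate. Such sums weight a list by the brightness of its probes. Dll3 made up between 52.4% and 60.2% of this sum at 24 h, and without it the sums were 2086 to 2235, 2621 to 2899 and 2609 to 3168. Within that remainder Foxc1 read 548 to 617 with DMSO, 943 to 1092 with WS1442 and 852 to 1066 with MeOH eluate. Foxc2 read 202, 334 to 359 and 452 to 635 in the same order. The list did not rise as a whole, since Uncx read 454 to 455, 452 to 532 and 439 to 466, and Msgn1 read 173 to 203, 153 to 159 and 107 to 113.

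Epicardial cells also express Aldh1a2 in the embryo. Of their 5 tested markers, Wt1 rose by 1.09 with WS1442 (not called without DMSO 24 h replicate 2, adjusted p = 0.0631) and Msln by 1.30 with MeOH eluate at 24 h, and the summed intensity was 203 to 217 with DMSO, 206 to 232 with WS1442 and 247 to 267 with MeOH eluate, while Tcf21, Tbx18 and Upk1b were not tested. The higher sum with MeOH eluate rested on Msln. Without Msln the sums were 163 to 170 with DMSO, 158 to 169 with WS1442 and 142 to 163 with MeOH eluate. Of the 6 tested endoderm markers at 24 h, 1 rose and 2 fell with WS1442 and 2 fell with MeOH eluate. Sox17 fell by 1.25 and 1.65, of which the former was not called with the mean of its probes (-0.43, adjusted p = 0.197), and Afp rose by 0.52 with WS1442 (adjusted p = 0.00391). Of the 11 cardiac markers, 1 rose and 3 fell with WS1442 and 4 fell with MeOH eluate at 24 h. Gata4 fell by 0.72 and 1.38, and Mef2c rose by 0.48 with WS1442 (adjusted p = 0.0156), not called without DMSO 24 h replicate 1 (0.255) or WS1442 24 h replicate 3 (0.0668). The summed intensities of the endoderm and cardiac lists were 3552 to 3702 and 2922 to 3076 with DMSO, 3162 to 3379 and 2547 to 2773 with WS1442, and 2282 to 2671 and 2054 to 2412 with MeOH eluate. Much of the endoderm difference lay in Gata6, which read 1329 to 1394 with DMSO, 1021 to 1147 with WS1442 and 390 to 579 with MeOH eluate. Without Gata6 the endoderm sums were 2223 to 2309, 2127 to 2232 and 1893 to 2148 in the same order. Without Gata4 the cardiac sums were 2258 to 2394, 2150 to 2317 and 1838 to 2132. Neuroectoderm markers summed to between 7343 and 7474 with DMSO, 8736 and 9104 with WS1442 and 8377 and 9348 with MeOH eluate at 24 h, with 3 of the 7 tested higher with WS1442 and 2 higher and 1 lower with MeOH eluate. Nes rose by 0.77 and 0.57, and without it the sums were 4824 to 5000 with DMSO, 4467 to 4737 with WS1442 and 4811 to 5313 with MeOH eluate. The pluripotency sums overlapped between DMSO (16798 to 17524) and MeOH eluate (16427 to 18268) and were 15535 to 16468 with WS1442. The lower sum with WS1442 rested on Dppa5a. Without Dppa5a the sums were 9693 to 10057 with DMSO, 9763 to 10525 with WS1442 and 9349 to 10865 with MeOH eluate. Of the 9 markers at 24 h, Utf1 rose and Dppa5a, Sox2 and Tdgf1 fell with WS1442, and Tdgf1 fell with MeOH eluate.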

How the data were processed

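RNA was measured in 16 samples on 1-colour Agilent arrays. The authors labelled cRNA with Cy3 and deposited the scanner's linear intensity of every spot, background corrected within the array, on a design built on mm9, and a table of intensities that were quantile normalized over all arrays. Each of the 16 columns of that table correlated best with its own array (lowest r = 0.998), and for the members it differed from the values used here by at most 0.0327 on the log2 scale. The main values were made from the deposited scanner intensities, because only these carry the background calls.

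Gene spots were taken as log2 intensities, non-uniform spots (3 to 25 per array) were set missing, and arrays were quantile normalized with limma 3.58.1 in R 4.3.3. Spots of a probe were averaged, and a probe was kept (36729 of 60273) if all arrays of any 1 group had it well above background. A gene was represented by its brightest kept probe. Of the probes, 42265 had 1 gene, 856 several and 17152 none, and symbols of members came from the files or through RefSeq accessions (GRCm38.p6). Fold changes are ratios of these intensities.

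All genes were fitted with limma, as 6 group means (eBayes with trend), and p-values were adjusted by the Benjamini-Hochberg method over all genes tested. SE and 95% intervals are from this fit. No count stands behind an array signal, so the number of arrays limits the precision. All comparisons with DMSO at a time point share its 2 DMSO samples. The procedure was tested on simulated data. The members, the lists and the rule for named genes (all members; from each list the 8 genes with the largest change among those called at least once; the 5 genes most like Aldh1a2) were chosen with earlier results of these data known. Not every gene that the rule allows is described, and a few single genes of the lists are counted but not reported here.

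Alternatives covered scaling, background correction, source of values, filter, probe choice, test, blocks, array weights and each sample left out. The methods' t-test is Student's test on the same values, which the methods name for pairwise comparisons. Figures were drawn with matplotlib 3.10.9 in Python 3.11.15.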

Additional observations from a re-analysis of the deposited data

Results flagged for a closer look

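The effect of a treatment differed between 24 h and 6 h for 8 results among the members, by a test of that difference in the same fit (limma, adjusted p-values under 0.05). The effect at 24 h exceeded that at 6 h, on the log2 scale, by 2.22 for Aldh1a2, 0.72 for Rdh10 and 0.56 for Dhrs3 with WS1442, and by 2.59 for Aldh1a2, 1.66 for Rdh10 and 1.40 for Dhrs3 with MeOH eluate. It was below that at 6 h for Cyp26b1 with WS1442, at -0.80, and for Crabp2 with MeOH eluate, at -0.92. All effects at a time point share the same 2 DMSO cultures.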

How the results depend on the processing

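The main limits are the 2 DMSO samples per time point, the slide that coincides with the time point, and dim probes for Rarb and Aldh1a1. The 24 h rise of Aldh1a2 and its gain over 6 h passed under every alternative that could be run with both treatments. With the methods' t-test, adjusted over all genes, the members called were 0 with WS1442 and 0 with MeOH eluate at 6 h (2 and 5 at an unadjusted p-value under 0.05), 1 with each at 24 h (Aldh1a2), 1 between the treatments at 6 h (Dhrs3) and 1 at 24 h (Rdh10), and it could not be fitted to the difference between times. With WS1442 at 6 h, 1 member (Crabp2) instead of 2 was called with 75th percentile scaling, no filter on dim probes, eBayes without trend, a fit within the time point and the replicate block, and 1 to 2 with samples left out in turn. Between the treatments at 24 h, 5 members instead of 3 were called with normexp background correction and with array weights, and 2 to 5 with samples left out. No value that changed sign passed the test in its changed direction. Deviations from the group mean correlated from -0.235 to 0.305 over 14 pairs of samples with the same replicate number. Over 28 pairs with different numbers they correlated from -0.205 to 0.248. Such deviations cancel within a group of 2 or 3 arrays, so these correlations do not settle whether the numbers pair the samples. With the replicate block, the members whose WS1442 effect differed between times were 2 (Aldh1a2, Rdh10) instead of 4, Cyp26b1 with WS1442 at 6 h was 0.0401, and no other count of members called moved by over 1.5 times. With array row as a block, the difference between times of Stra6 with WS1442 was 0.0197. With samples left out in turn, values that changed sign ranged from -0.12 to 0.18 for Aldh1a2 between the treatments at 6 h, -0.011 to 0.10 for Crabp2 with MeOH eluate at 24 h, -0.10 to 0.0146 for Cyp26a1 with WS1442 at 24 h, -0.0465 to 0.075 for Cyp26b1 between the treatments at 24 h, -0.081 to 0.0667 for Cyp26b1 with WS1442 at 6 h, -0.36 to 0.0177 for Stra6 with WS1442 at 24 h, and -0.28 to 0.10 for its difference between times. Of the results of single members, 17 lost a call with the methods' t-test, 6 lost and 3 gained one under at least 1 of the remaining alternatives, and 7 lost and 8 gained one with at least 1 of the samples left out. In the 3 pathway lists limma made 43 calls against DMSO and the methods' t-test 2, Bhlhe40 and Meis2 with MeOH eluate at 24 h (50 at an unadjusted p-value under 0.05), and with the replicate block the response genes higher with WS1442 at 6 h were 1 instead of 4. The cause of these changes was not tested.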
